A study of Mus musculus with 24 samples.

Results

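Gpx1, Gpx3, Gpx4, Gsr, Gclc, Gclm, Txnrd1, Prdx1, Sod1 and Sod2 are genes of the glutathione, thioredoxin and superoxide defences of the cell. They were taken by their gene symbols in the platform annotation, with all their probes, and make up 10 of the 19532 genes and 14 of the 32664 probes with 1 symbol. The list was chosen by name around Gpx4, which was itself selected on its measured rise at 10 h over 0 h on these arrays, so the levels of Gpx4 against 0 h are a description without a test. The mRNA of single mouse cells was measured at 2 h intervals after intracytoplasmic sperm injection (ICSI), in which a sperm is injected into an oocyte. Metaphase II (MII) oocytes stood for 0 h (n = 3), and they were followed by single embryos 2 h (n = 3), 4 h (n = 4), 6 h (n = 3), 8 h (n = 3), 10 h (n = 4) and 12 h (n = 4) after injection, 21 embryos in all. Cells of all 7 groups were of the B6D2F1 hybrid strain, the oocytes were kept in culture until use, and the sperm came from B6D2F1 males 8 to 12 weeks old. Each cell has its own array and is named here by the letter a to d of its title. No oocyte cultured for the same hours without a sperm was compared here, so time in culture, the injection and the sperm cannot be told apart. The labels do not say which cells came from 1 animal, and the p-values therefore cover only the spread from cell to cell in this experiment.

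Reactive oxygen species are removed in relays. Superoxide dismutases turn superoxide into hydrogen peroxide, and glutathione peroxidases and peroxiredoxins reduce peroxides at the expense of glutathione or thioredoxin, which are then reduced again with NADPH. The oocyte builds up a store of glutathione before fertilization, which is known to serve in unpacking the sperm head, and the early embryo draws on maternal mRNA until its own genome is transcribed. An injected sperm also carries some RNA into the cell.

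The unit throughout is log2 intensity, worked out from the scores that were deposited. Values run from 5.69 to 15.86, with the most common value, 6.85, taken as background, near which changes are understated, and the level of 1 probe is not set against that of another. All 12 oocyte marker genes measured averaged over 2 log2 units above background in every group. Averaged over all arrays, 5 of 19 sperm and spermatid markers, 2 of 12 cumulus cell markers and 1 of 7 blood markers were that far above it. The embryo arrays had 5309 to 7531 distinct values and a median correlation with their own group of 0.826 to 0.887, and the oocyte arrays had 7580 to 7856 distinct values and a median correlation of 0.933 to 0.936.

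Promoter windows are shown for Txnrd1 and Prdx1, the members, Gpx4 aside, for which the most embryos lay below or above every oocyte. The antioxidant response element, to which the transcription factor NRF2 binds, has the core TGACNNNGC, where N is any base. It was searched on both strands of RefSeq windows of the GRCm38.p6 assembly, from 250 bases before to 50 bases after a start, and a match is not a site of binding. Of 32851 windows of all genes, 4071 (12.39%) held a match. The table has 13 windows for 8 of the 10 genes, and 4 windows held one, those being of Gclm, Prdx1, Sod1 and Txnrd1. Capitals mark the match, which lies on the opposite strand in both windows shown. The Txnrd1 window (chr10:82858956-82859255, plus strand), 1 of 3 for this gene, has its match beginning at -92 from the start, and the Prdx1 window (chr4:116685349-116685648, plus strand) at -133.
Txnrd1: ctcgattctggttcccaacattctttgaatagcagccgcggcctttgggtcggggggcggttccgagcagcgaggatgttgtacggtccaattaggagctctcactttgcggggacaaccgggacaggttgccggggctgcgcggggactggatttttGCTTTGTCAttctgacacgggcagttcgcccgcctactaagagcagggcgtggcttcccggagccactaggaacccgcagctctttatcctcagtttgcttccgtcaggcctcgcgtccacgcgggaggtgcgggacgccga
Prdx1: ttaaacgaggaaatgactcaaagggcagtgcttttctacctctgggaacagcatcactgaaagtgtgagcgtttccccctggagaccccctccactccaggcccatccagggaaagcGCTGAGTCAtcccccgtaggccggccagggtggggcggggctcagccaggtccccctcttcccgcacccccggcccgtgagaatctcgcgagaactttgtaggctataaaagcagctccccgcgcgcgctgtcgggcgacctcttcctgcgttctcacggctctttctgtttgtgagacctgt

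Over all embryos together, 1 of the 9 genes other than Gpx4 passed the test against oocytes. Txnrd1 was lower in embryos, and none of the others had an adjusted p under 0.05. Gpx4 was left aside as the gene of the choice. The background was 0.942% of all genes called in this comparison, and 0.768% called lower. Without adjustment, p was under 0.05 in limma for 2 of the 9 genes other than Gpx4 and for 10.6% of all genes. The median change of these 9 genes was -0.63 log2 units and that of all genes 0.096, and 3 of the 9 changes were above 0.

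Txnrd1 encodes the cytosolic thioredoxin reductase, a selenoprotein that reduces thioredoxin with NADPH. Its log2 intensity was 10.02, 10.55 and 8.90 in the oocytes, 6.81, 7.19 and 7.25 in the 2 h embryos, and 7.47, 7.09, 7.39 and 8.02 at 4 h. It was 7.40, 6.97 and 9.02 at 6 h and 8.54, 7.17 and 7.53 at 8 h. It was 9.17, 7.36, 7.37 and 7.93 at 10 h and 9.08, 8.07, 7.56 and 7.33 at 12 h. Thus 18 of 21 embryos lay below every oocyte, and the 3 that overlapped with the oocytes were 1 embryo each of 6 h, 10 h and 12 h. All 2 h, 4 h and 8 h embryos were below every oocyte, and 10 of the 24 arrays were over 1 log2 unit above background. The log2 change of the mean of the 6 embryo groups against oocytes was -2.14 (SE 0.45, 95% interval -3.09 to -1.20, limma adjusted p = 0.0215). The call was lost without oocyte a (-2.05, adjusted p = 0.166), without oocyte c (-1.78, adjusted p = 0.226) and without the 4 arrays of coarsest values (-2.01, adjusted p = 0.0792).

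Taken time by time, the change of Txnrd1 against oocytes was -2.74 in 2 h embryos, -2.33 in 4 h embryos, -2.03 in 6 h embryos and -2.08 in 8 h embryos. It was -1.87 in 10 h embryos and -1.81 in 12 h embryos. These 6 comparisons share the 3 oocytes. None passed the threshold in limma, with adjusted p between 0.083 at 2 h and 0.25 at 6 h. Set against each other, the 12 h embryos averaged 8.01 ± 0.78 and the 2 h embryos 7.09 ± 0.24 (SD, n = 4 and 3), a difference of 0.92 (95% interval -0.24 to 2.09, adjusted p = 0.466). Ordered by mean, the embryo groups ran 2, 4, 8, 6, 10 and 12 h, and neighbours in that order overlapped. The oocyte mean of 9.82 ± 0.84 was the highest.

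Prdx1 encodes a cytosolic peroxiredoxin that reduces hydrogen peroxide with electrons from thioredoxin. It lay near the top of the scale in every cell, where differences are compressed. The oocytes had 15.32, 15.25 and 15.24, the 2 h embryos 15.39, 15.63 and 15.61, and the 4 h embryos 15.47, 15.74, 15.67 and 15.65. The 6 h embryos had 14.93, 15.52 and 15.51 and the 8 h embryos 15.42, 15.51 and 15.70. The 10 h embryos had 15.48, 15.75, 15.65 and 15.43, and the 12 h embryos 15.61, 15.71, 15.73 and 15.80. Of 21 embryos, 20 were above every oocyte, and 6 h embryo a was below them. The change was 0.44 at 12 h (SE 0.13, adjusted p = 0.0843) and 0.28 over all embryos (SE 0.10, 95% interval 0.07 to 0.49, adjusted p = 0.255), so neither passed the threshold. At 12 h it was called without 6 h embryo a, the one embryo below the oocytes (adjusted p = 0.0279).

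**Figure D1:**
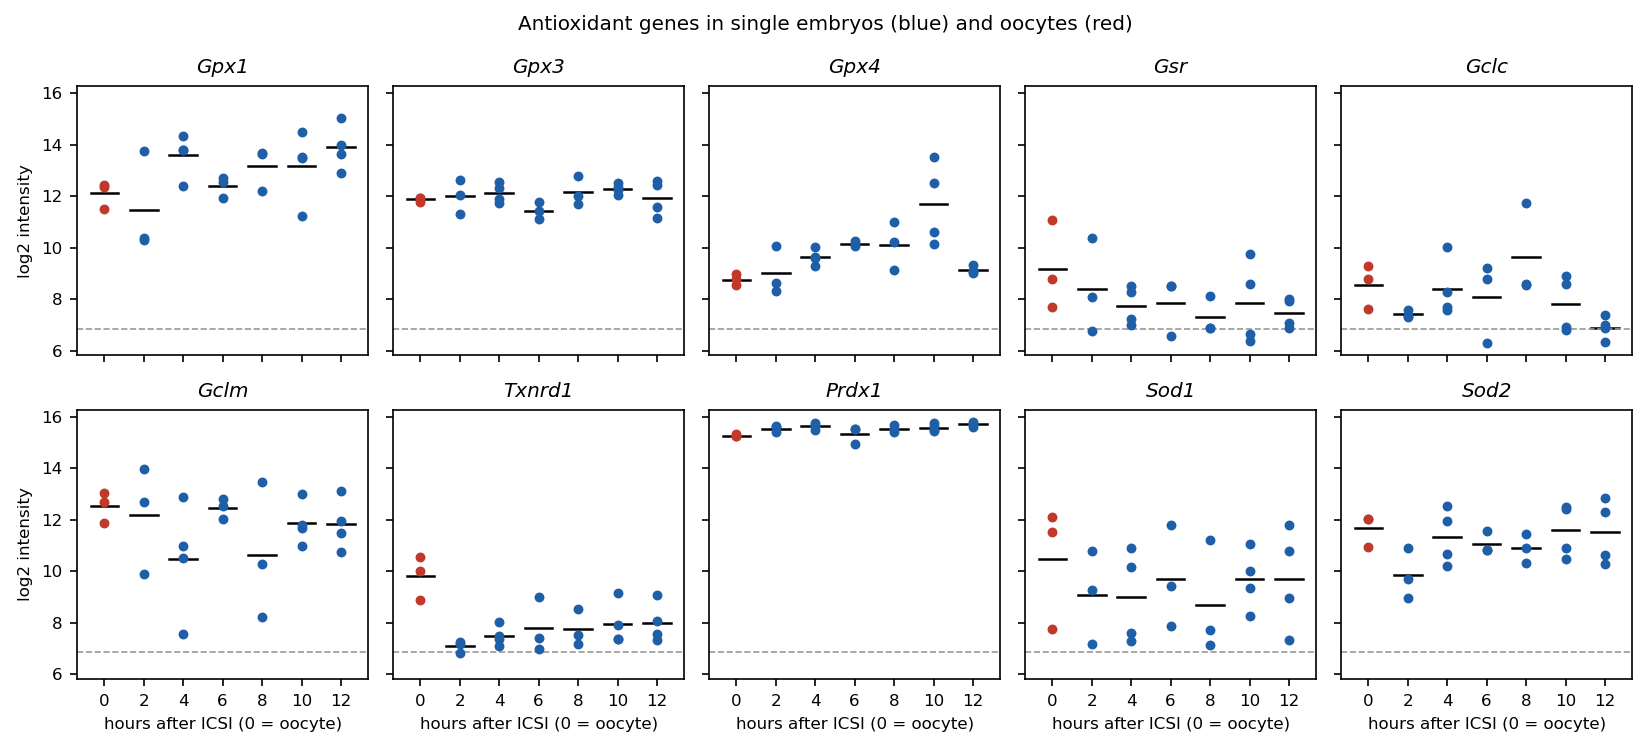
Log2 intensity of the 10 genes (1 point per cell, brightest probe) against hours after ICSI, in embryos (blue) and oocytes (red, at 0 h). Bars are group means and the dashed line is the background of 6.85. Txnrd1 points of 18 of 21 embryos lie below all 3 oocytes, and Gpx4 points spread widest at 10 h.

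Gpx4 encodes a selenoprotein that reduces lipid peroxides within membranes. It also makes up part of the capsule of sperm mitochondria. Its 1 probe read 8.53, 8.78 and 8.97 in the oocytes, 10.06, 8.61 and 8.33 at 2 h, and 9.28, 10.03, 9.58 and 9.63 at 4 h. It read 10.25, 10.05 and 10.15 at 6 h and 10.98, 9.14 and 10.20 at 8 h. It read 10.60, 12.52, 10.15 and 13.53 at 10 h and 9.32, 9.11, 9.01 and 9.08 at 12 h. From 4 h on every embryo was above every oocyte, at 2 h the embryos fell on both sides, and in all 19 of 21 embryos were above and 1 below. Ordered from low to high, the group means ran 0, 2, 12, 4, 8, 6 and 10 h. They were 8.76 ± 0.22 in the oocytes, 9.63 ± 0.31 at 4 h, 10.15 ± 0.10 at 6 h, 10.10 ± 0.93 at 8 h, 11.70 ± 1.60 in the 10 h embryos and 9.13 ± 0.13 in the 12 h embryos (SD), with an SD of 0.93 at 2 h as well. The pooled SD between cells of a group was 0.80, and the 10 h group, on which the gene was chosen, had the widest spread.

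The 10 h mean of Gpx4 was set by embryos b and d, while embryos a and c were within the range of the 8 h embryos. Against oocytes the change at 10 h was 2.94, and leaving out 1 array at a time it ran from 2.33 without 10 h embryo d to 3.46 without 10 h embryo c. The 2 h embryos had a change of 0.24, the 4 h embryos of 0.87, the 6 h embryos of 1.39, the 8 h embryos of 1.35 and the 12 h embryos of 0.37. The direction at 2 h rested on 2 h embryo a, without which the change was -0.29. Among comparisons whose means used neither the oocytes nor the 10 h embryos, the 12 h embryos were 0.13 above the 2 h embryos (95% interval -1.24 to 1.49, adjusted p = 0.963). The change was 0.63 for 4 h over 2 h (adjusted p = 0.811), 0.52 for 6 h over 4 h (adjusted p = 0.899) and -0.05 for 8 h over 6 h (adjusted p = 1). None passed the threshold. The interval and p-values of these comparisons still rest on a spread estimated over all groups, the oocytes and the wide 10 h group among them.

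Sperm transcripts were measured beside Gpx4. The summed log2 level of the 19 sperm and spermatid markers was 13.61 to 14.12 in the oocytes, 14.24 to 14.91 at 2 h, 14.85 to 15.14 at 4 h and 14.49 to 15.03 at 6 h. It was 14.62 to 14.97 at 8 h, 14.93 to 15.05 at 10 h and 14.05 to 14.48 at 12 h. Within 1 log2 unit of background were 14 of the 19 markers at 10 h and 14 at 0 h. Prm1, a protamine of the sperm head, read 12.97, 12.72, 12.60 and 12.80 in the 10 h embryos a to d. The oocytes had 11.42, 11.46 and 11.24, so Prm1 was well above background there without a sperm. Its change at 10 h was 1.40 (limma adjusted p = 0.0209), and the 12 h embryos, at 11.69 to 11.87, were all lower than the 10 h embryos, as for Gpx4. Of the 10 h embryos, a had the highest Prm1, and d, the highest in Gpx4, came next. Prm2 was not set beside Gpx4 embryo by embryo. Prm2, another protamine, averaged 8.25 ± 0.13 in the oocytes, 11.07 ± 1.78 in the 10 h embryos and 9.15 ± 0.69 in the 12 h embryos (SD). Its 10 h embryos ran from 8.72 to 12.98 and overlapped the 12 h embryos. Oaz3, a spermatid gene, was at 7.09 to 7.64 in the 10 h embryos and 10.96, 9.44 and 12.66 in the 8 h embryos. The other sperm and spermatid markers clear of background were Gapdhs, Odf2 and Tnp2. Gapdhs averaged 11.80 at 0 h, 13.42 at 10 h and 12.34 at 12 h, Odf2 12.54, 12.78 and 12.73, and Tnp2 9.34, 10.49 and 10.15. Some markers near background were lower at 10 h than at 0 h, such as Akap4 (7.20 against 7.77). The summed marker lists of other cells were also higher at 10 h than at 0 h. The summed log2 level of the 12 cumulus and granulosa cell markers was 12.90 to 12.96 at 0 h, 13.42 to 13.88 at 10 h and 13.01 to 14.03 at 12 h, and that of the 7 blood markers 13.19 to 13.74, 13.90 to 14.31 and 13.08 to 13.94. At 0 h and 10 h each of these sums rests mostly on 1 gene. Among the 12 h embryos Kitl, another cumulus and granulosa marker, reached 12.94. Amh, a hormone gene of granulosa cells, averaged 12.46 at 0 h, 13.37 at 10 h and 12.68 at 12 h. The globin gene Hbb-bt averaged 13.27, 13.99 and 13.28. Both had a higher mean at 10 h than at 0 h and 12 h. Within 1 log2 unit of background at 10 h were 8 of the 12 cumulus and 5 of the 7 blood markers. Hba-a1 and Nr5a2 were lower at 10 h (7.47 and 7.34) than at 0 h (8.76 and 7.89), and Ptgs2 was higher (7.95 against 7.16). The part of any of these transcripts in the Gpx4 values was not tested.

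**Figure D2:**
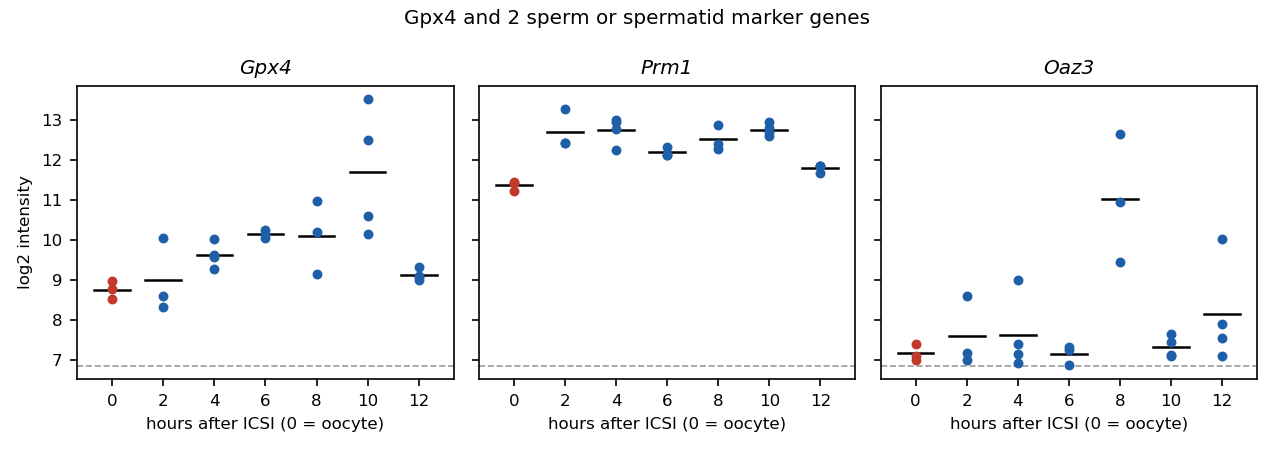
Log2 intensity per cell of Gpx4 and of the sperm or spermatid genes Prm1 and Oaz3 against hours after ICSI, in embryos (blue) and oocytes (red, at 0 h), with group means as bars and the background of 6.85 dashed. Gpx4 and Prm1 are both lower at 12 h than at 10 h, and Oaz3 is high at 8 h.

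The genes with the pattern most like that of Gpx4 over the 24 arrays were Fcho1, Mdh1b, Ppp1r9b, Zpld1 and Sspo. Their Pearson correlations with Gpx4 were 0.792, 0.762, 0.754, 0.745 and 0.737, the highest among 7459 genes whose mean was over 2 log2 units above background. The arrays share their normalization and groups, so the correlations are a description. Fcho1, which encodes a protein of clathrin-coated pits, was at 12.27, 12.17, 11.75 and 12.53 in the 10 h embryos, against 10.19, 10.73 and 11.11 in the oocytes. The other 9 antioxidant genes were less like Gpx4, with correlations of -0.200 for Sod1 up to 0.383 for Gpx1.

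Gpx1 encodes the cytosolic glutathione peroxidase. It read 12.45, 11.51 and 12.37 in the oocytes, 13.75, 10.28 and 10.36 at 2 h, and 12.39, 13.80, 14.34 and 13.80 at 4 h. It read 12.72, 11.94 and 12.54 at 6 h and 13.67, 13.62 and 12.20 at 8 h. It read 13.53, 14.50, 11.23 and 13.47 at 10 h and 15.04, 13.99, 13.62 and 12.90 at 12 h. All 12 h embryos were above every oocyte, and 15 of the 21 embryos were, while 3 were below. The 12 h embryos were 2.42 above the 2 h embryos (SE 0.76, 95% interval 0.84 to 4.01, adjusted p = 0.125), and 2 h embryo a overlapped with them. Without 2 h embryo a the difference was 3.56 and passed the threshold (adjusted p = 0.0184). Against oocytes the change was 1.78 at 12 h (adjusted p = 0.295) and 0.84 over all embryos (adjusted p = 0.668).

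Gpx3 encodes the secreted glutathione peroxidase known from blood plasma. It varied little, from 11.11 to 12.80 in the embryos and from 11.78 to 11.94 in the oocytes. The 6 h embryos, at 11.42, 11.76 and 11.11, were all below the oocytes, and the 10 h embryos, at 12.49, 12.06, 12.36 and 12.25, were all above them. The change was -0.45 at 6 h (adjusted p = 0.854) and 0.41 at 10 h (adjusted p = 0.789), and neither passed the threshold. Over all embryos the change was 0.10 (95% interval -0.56 to 0.77, adjusted p = 0.915).

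Glutathione is built from its amino acids in a first step by glutamate-cysteine ligase, whose catalytic subunit is encoded by Gclc and modifier subunit by Gclm. Gclc read 6.32, 7.38, 6.88 and 6.98 in the 12 h embryos, at or near background, against 9.29, 8.79 and 7.60 in the oocytes. The 2 h embryos, at 7.32, 7.36 and 7.59, and the 12 h embryos were all below the oocytes, whereas 8 h embryo c reached 11.74. The change at 12 h was -1.67 (95% interval -3.34 to -0.01, adjusted p = 0.367), which did not pass. Gclm was well above background in 22 of 24 cells but spread widely, from 7.55 to 13.99 in the embryos and from 11.88 to 13.05 in the oocytes. Its group SD reached 2.63 at 8 h, where the embryos read 10.27, 13.45 and 8.22, and the embryo mean was -0.97 against oocytes (95% interval -2.85 to 0.91, adjusted p = 0.736).

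Gsr encodes glutathione reductase, which restores glutathione with NADPH. Its brightest probe read 6.39 to 10.36 in the embryos and 11.08, 7.68 and 8.77 in the oocytes, and 10 embryos lay below every oocyte. The embryo mean was -1.41 against oocytes on that probe (95% interval -2.89 to 0.08, adjusted p = 0.509), but -0.46 without oocyte a and -2.16 without oocyte c. The other 2 probes gave changes of 0.14 and 0.07 in a fit of all 41174 probes, with adjusted p of 0.908 and 0.948, so the probes did not share a direction. Only 3 of the 24 arrays of the brightest probe, 1 of the second and 0 of the third were over 2 log2 units above background.

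Sod1 encodes the copper and zinc superoxide dismutase of the cytosol, and Sod2 the manganese enzyme of mitochondria. The brightest Sod1 probe was spread over most of the range within groups, at 7.32, 10.80, 8.95 and 11.78 in the 12 h embryos and at 11.53, 12.11 and 7.74 in the oocytes. Its embryo mean was -1.15 against oocytes (95% interval -3.39 to 1.09, adjusted p = 0.737), an interval wide enough to hold large changes either way, and it was -0.33 without oocyte c and -2.51 without oocyte d. The other 2 Sod1 probes stayed between 6.49 and 7.63 on all 24 arrays, at background. Sod2 read 10.89, 9.72 and 8.98 in the 2 h embryos, all below the oocytes at 12.02, 12.05 and 10.96. The change at 2 h was -1.82 (95% interval -3.38 to -0.25, adjusted p = 0.435). The 12 h embryos, at 10.27, 12.84, 12.32 and 10.64, were 1.66 above the 2 h embryos (95% interval 0.19 to 3.12, adjusted p = 0.265).

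**Figure D3:**
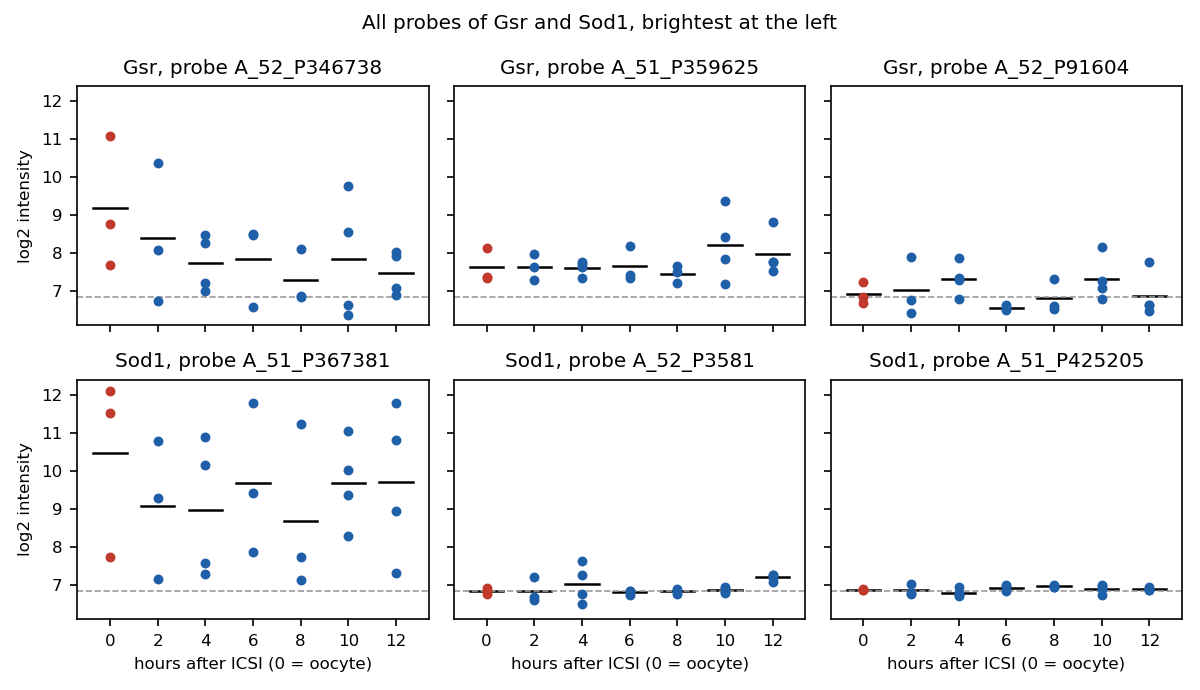
Log2 intensity per cell of all 3 probes of Gsr (upper row) and of Sod1 (lower row) against hours after ICSI, in embryos (blue) and oocytes (red, at 0 h), with group means as bars and the background of 6.85 dashed. For Sod1 the brightest probe alone leaves the background, and its cells of 1 group spread over several log2 units.

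Against oocytes, 0 of the 9 genes other than Gpx4 passed at 2, 4, 6, 8, 10 and 12 h in limma. Gpx4 was chosen on the 10 h contrast, so neither its call there nor its other changes against oocytes are counted as results. Of all genes, 0.108% were called in 2 h embryos, 0.0666% in 4 h embryos, 0.169% in 6 h embryos, 0.896% in 8 h embryos, 0.712% in 10 h embryos and 1.46% in 12 h embryos. Without adjustment, p was under 0.05 for 2, 2, 1, 1, 2 and 4 of the 9 genes other than Gpx4 at those times, where 9.51%, 9.26%, 8.78%, 13.3%, 11.3% and 13.5% of all genes were. The 2 h embryos were all above all oocytes for 1 of these 9 genes (8.22% of all genes), the 4 h embryos for 1 (8.55%), the 6 h embryos for 0 (10.5%), the 8 h embryos for 1 (14.1%), the 10 h embryos for 2 (8.28%) and the 12 h embryos for 2 (12%). The 2 h embryos were all below all oocytes for 3 genes (9.9% of all genes), the 4 h embryos for 1 (5.79%), the 6 h embryos for 1 (9.38%), the 8 h embryos for 1 (10.8%), the 10 h embryos for 0 (7.12%) and the 12 h embryos for 1 (7.23%). Prdx1 was above at every time but 6 h, and Txnrd1 below at 2, 4 and 8 h.

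Among embryos, 0 of the 10 genes passed for 12 h over 2 h, where 1.16% of all genes were called, and 2, Gpx1 and Sod2, had an unadjusted p under 0.05 in limma, as did 14.9% of all genes. For the slope per hour over the 21 embryos, 0 of the 9 other than Gpx4 passed, where 0.589% of all genes were called. The unadjusted p was under 0.05 for 12.5% of all genes and for 1 member, Gpx1, at 0.15 log2 units per hour (95% interval 0.01 to 0.29, adjusted p = 0.361). In the moderated F-test over the 7 times 0 of the 9 other than Gpx4 passed, where 1.21% of all genes were called. The unadjusted p of that test was under 0.05 for 2 of these 9. Between consecutive times, 0 of the 9 other than Gpx4 passed in each of 5 limma comparisons. Of all genes, 0.0205% were called for 4 h over 2 h, 0.0256% for 6 h over 4 h and 0.00512% for 8 h over 6 h. The share called was 0.118% for 10 h over 8 h and 0.0358% for 12 h over 10 h. Gpx4 left out, the unadjusted p was under 0.05 for 2 (9.31% of all genes), 1 (8.66%), 0 (7.51%), 1 (7.89%) and 0 (9.5%) of the other 9 in that order.

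**Figure D4:**
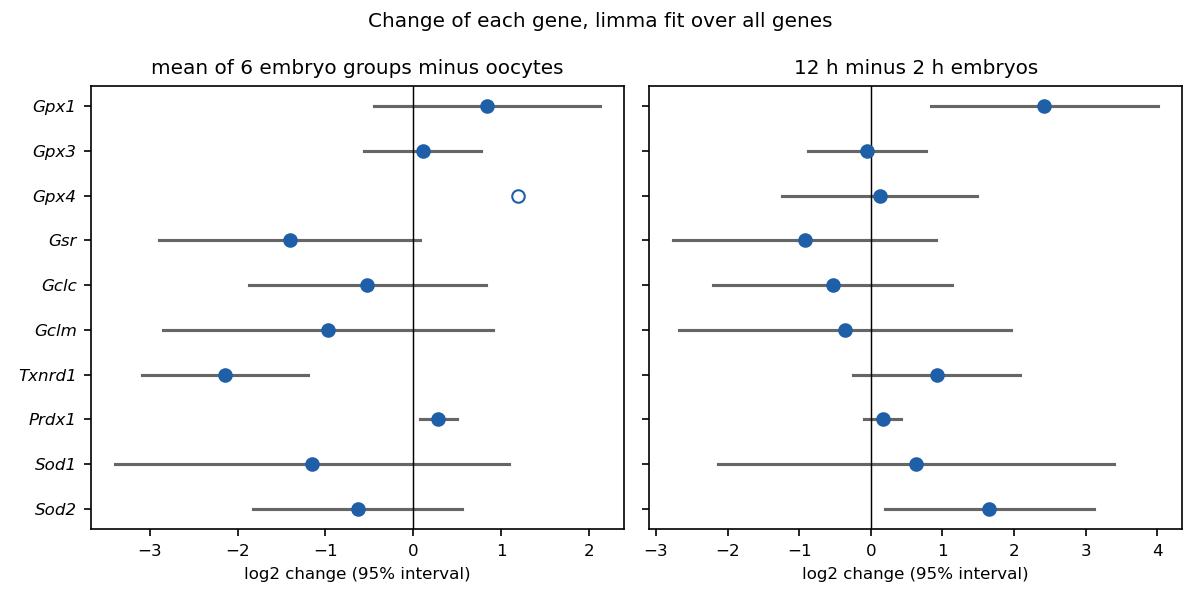
Log2 change of the 10 genes with 95% intervals from the limma fit, for the mean of the 6 embryo groups minus oocytes (left) and for 12 h minus 2 h embryos (right). Gpx4 against oocytes is an open point without an interval. Txnrd1 lies at -2.14, and for 12 h minus 2 h the intervals of Gpx1 and Sod2 lie above 0 before adjustment over all genes.

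A wider list of 114 genes of the same systems, of which 109 have a probe, showed 7 genes past the threshold, with 13 calls among the 14 comparisons. Against oocytes 2 of 109 passed at 8 h (1 higher, 1 lower, beside 0.896% of all genes), 5 at 12 h (3 higher, 2 lower, beside 1.46%) and 2 over all embryos (both lower, beside 0.942%). For 12 h over 2 h 2 passed (1 higher, 1 lower, beside 1.16%), for the slope 1, higher (beside 0.589%), and for 10 h over 8 h 1, lower (beside 0.118%). At 2, 4, 6 and 10 h 0 passed against oocytes in limma, with 12, 8, 12 and 15 at an unadjusted p under 0.05, where 9.51%, 9.26%, 8.78% and 11.3% of all genes were. The list's median change over all embryos was 0.035, against 0.096 for all genes.

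Txnrd3, the thioredoxin reductase best known from the testis, ran the same way as Txnrd1. Txnrd3 averaged 9.47 ± 0.53 in the 12 h embryos and 12.42 ± 0.83 in the oocytes (SD, n = 4 and 3), a change of -2.96 (adjusted p = 0.0318). Its embryo mean was -2.54 against oocytes (adjusted p = 0.0284), a call lost without each of the 3 oocytes, with adjusted p up to 0.274. The 12 h call was lost without oocyte a or d or 12 h embryo a or c, with adjusted p up to 0.193. Txnrd2, the mitochondrial thioredoxin reductase, had an embryo mean of 8.57 ± 0.57 and an oocyte mean of 8.74 ± 0.24 (SD, n = 21 and 3), at a change of -0.21 (adjusted p = 0.838). Txn1, the cytosolic thioredoxin, was below every oocyte in 18 of 21 embryos, with a change of -1.47 that did not pass (adjusted p = 0.493). Txn2, the mitochondrial thioredoxin, was above every oocyte in 15 embryos, with a change of 1.26 (adjusted p = 0.489).

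Prdx2, a peroxiredoxin related to Prdx1, averaged 14.95 ± 0.33 in the 12 h embryos and 13.84 ± 0.34 in the oocytes (SD, n = 4 and 3), a change of 1.11 (adjusted p = 0.0395). Its other probes changed by 1.27 and 1.49, and the call was lost without 7 of the 24 arrays in turn, which were the 3 oocytes, 10 h embryo d and 12 h embryos a, b and c (adjusted p up to 0.195). Txndc9, a thioredoxin domain protein, averaged 14.13 ± 0.34 in the 12 h embryos and 10.85 ± 0.76 in the oocytes, a change of 3.29 (adjusted p = 0.00427), where its other probes changed by 0.45 and 1.34. For 12 h over 2 h it changed by 2.39 (adjusted p = 0.0429), lost without 13 of the 24 arrays in turn, and its other probes by 0.11 and -0.30. Its slope was 0.26 log2 units per hour (adjusted p = 0.015). Both the 12 h call and the slope's were lost with the mean of its probes (1.69, adjusted p = 0.182, and 0.12, adjusted p = 0.424) and with the probe of largest SD (1.34, adjusted p = 0.638, and 0.00, adjusted p = 0.999). Selenom, a selenoprotein of the endoplasmic reticulum, averaged 11.08 ± 0.69 in the 12 h embryos and 9.06 ± 0.24 in the oocytes, a change of 2.03 (adjusted p = 0.0328). Its second probe changed by 0.95, and the call was lost without each oocyte and without 12 h embryo a, b or d (adjusted p up to 0.152).

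Of these 7 genes, the largest changes were in Taldo1 and Tkt, enzymes of the pentose phosphate pathway. Pgd and Pgls, of the same pathway, averaged 11.41 and 9.46 in the embryos and 11.47 and 8.99 in the oocytes, without a call. Taldo1, transaldolase, averaged 7.14 ± 0.30 in the 8 h embryos and 13.30 ± 0.49 in the oocytes (SD, n = 3 each), a change of -6.16 (adjusted p = 0.0125) that kept its call without each array in turn. It was -3.84 at 12 h (adjusted p = 0.0406), lost without 7 arrays, which were the 3 oocytes, 8 h embryo c and 12 h embryos b, c and d, and -3.47 over all embryos (adjusted p = 0.0274), lost without each oocyte (adjusted p up to 0.19). Tkt, transketolase, averaged 7.42 ± 0.18 in the 12 h embryos and 12.25 ± 0.60 in the 2 h embryos (SD, n = 4 and 3), a change of -4.83 (adjusted p = 0.0144), lost without 2 h embryo d (adjusted p = 0.0524). Its other probes, near background, changed by -0.55 and 0.56. Gsta3, a glutathione transferase, averaged 7.97 ± 0.92 in the 8 h embryos and 6.81 ± 0.09 in the oocytes (SD, n = 3 each), a change of 1.16 near background (adjusted p = 0.0484) that was lost without 21 of the 24 arrays in turn. The 10 h embryos, at 6.64 ± 0.10 (n = 4), had a change of -1.34 against the 8 h embryos (adjusted p = 0.0406), a call lost without 17 of the 24 arrays in turn.

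**Figure D5:**
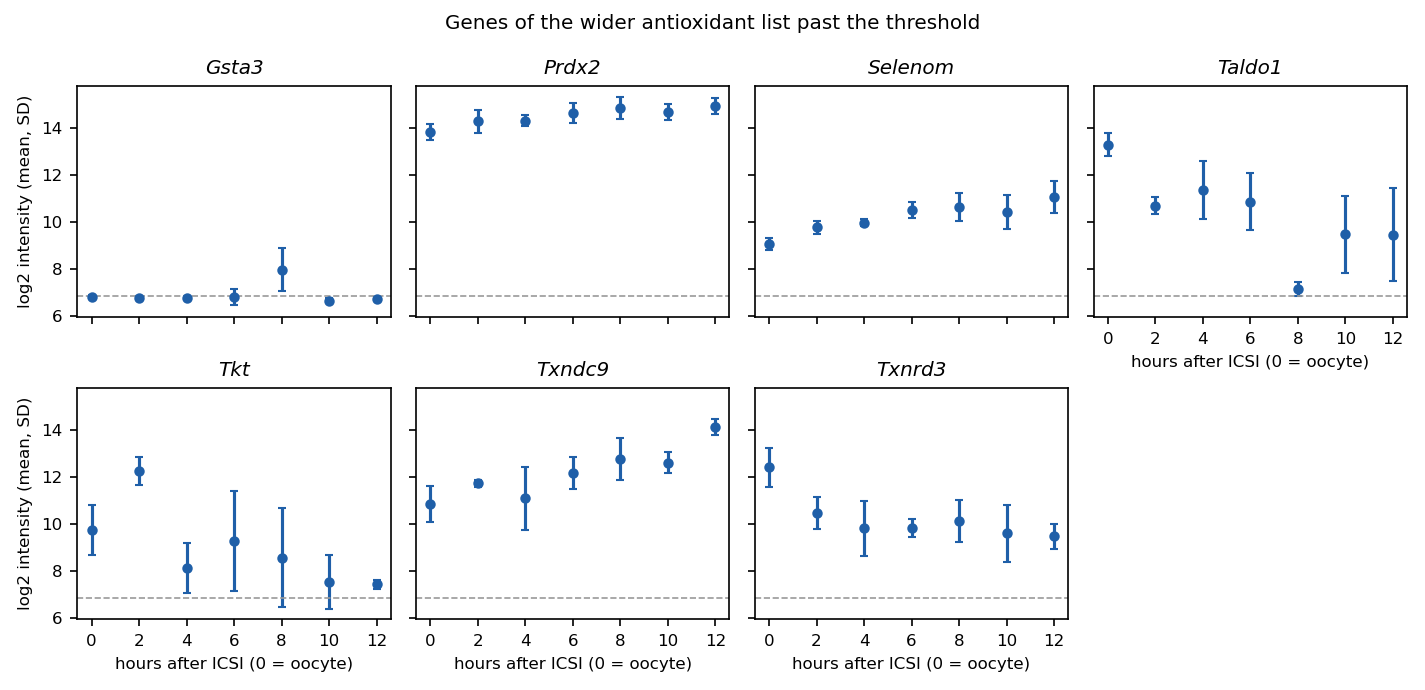
Mean log2 intensity with SD bars of the 7 genes of the wider list past the threshold, against hours after ICSI with oocytes at 0 h (n = 3 or 4 cells per point), and the background of 6.85 dashed. The mean of Txnrd3 is lower in every embryo group than in the oocytes, and Taldo1 lies near background at 8 h.

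Other parts of the wider list had no call. Cat, the catalase that splits hydrogen peroxide, was below every oocyte in 15 of 21 embryos, with a change of -2.04 over all embryos (adjusted p = 0.555). Nfe2l2, which encodes NRF2, had a change of -1.09 (adjusted p = 0.735), and Keap1, the adaptor that marks NRF2 for degradation, had -0.65 (adjusted p = 0.805). Of the genes known as NRF2 targets, Hmox1 had 0.53 (adjusted p = 0.755), Nqo1 -0.74 (adjusted p = 0.748) and Srxn1 0.90 (adjusted p = 0.53). For Srxn1 19 of 21 embryos lay above every oocyte, and for Gpx2 21, Aifm2 20 and Dio2 20, also without a call. The share of all genes with such counts over 21 embryos, here and above, is not given, so the counts are a description.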

How the data were processed

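Per the labels' protocols, the mRNA of a single cell was bound to oligo-dT beads, reverse transcribed, tailed and amplified by PCR before hybridization, and limma is named in the submitters' processing notes without a version. The labels name a digoxigenin sample and a biotin reference, and no source used here says which of them was deposited. The values deposited by the authors are scores (0 to 4.57), which were taken to be a rescaled double natural log of intensity after quantile normalization. They were turned back to log2 intensity with a curve of that shape fitted to midpoints of ties. On the curve lay 339 midpoints, with 10 off it (divisor 0.2247), and the fit needs all the decimals deposited. The largest error was 0.0018 on 40000 simulated probes, which were made with the same shape and so do not test it. The scale rests on that shape, so the planned log2 test was run on recovered log2 intensity.

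Of 41174 probes, 32664 had 1 symbol, 45 several and 8465 none, and 32524 matched the RefSeq table by Entrez identifier. The probe with the highest mean stood for each of 19532 genes. limma 3.58.1 in R 4.3.3 (lmFit, eBayes with trend) fitted 7 group means on all 24 arrays. The 14 comparisons were two-sided, with Benjamini-Hochberg adjustment over all genes and a threshold of 0.05. Tested on simulated data of 19532 genes, the fit of 12 h embryos against oocytes found 0% of the changes by 1 log2 unit, 21% at 2 units and 86% at 4 units, and for 10 h embryos 2%, 15% and 84%, with 1 false call each. In all, 36 alternative settings were run, 24 of them leaving out 1 array each. Cells were not paired by replicate letter in the main fit. Deviations of the same letter correlated at a median of 0.014 over 62 pairs, 6 of them over 0.1. Those of different letters did so at -0.009 over 184 pairs, 9 of them over 0.1, so a weak pairing is not excluded. Named were all 10 members, genes of the wider list past the threshold, and the 5 genes most correlated with Gpx4. Genes of the wider list named without a call were chosen after their values were seen. The members and lists were chosen with earlier results of these data known. The number of arrays limits the precision.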

Additional observations from a re-analysis of the deposited data

Results flagged for a closer look

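Gpx3 lay on opposite sides of the oocytes at 10 h and 6 h. All 4 embryos of 10 h (mean 12.29 ± 0.18) were above the 3 oocytes (mean 11.88 ± 0.09), and all 3 embryos of 6 h (mean 11.43 ± 0.33) were below the oocytes. Of all genes, 8.28% had all 10 h embryos above all oocytes and 9.38% all 6 h embryos below them. Neither change passed the threshold in limma (0.41 at 10 h, adjusted p = 0.789, and -0.45 at 6 h, adjusted p = 0.854). The difference between the changes at 10 h and at 6 h was not tested.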

How the results depend on the processing

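Directions are of embryos against oocytes or of later against earlier embryos. The number of the 10 genes called at 10 h was 1, Gpx4 on the contrast of its choice, so it is a description. The number became 2 with array weights and 0 with only the groups compared or with the replicate block. It was also 0 without the 4 coarsest arrays, a setting added once the data had been seen, and 0 to 1 without 1 array in turn. It became 1 at 4 h with array weights. At 12 h it was 1 with array weights and with only the groups compared, and 0 to 1 without 1 array in turn, as was the number for 12 h over 2 h. Over all embryos it became 2 with array weights, 0 without the coarsest arrays and 0 to 1 without 1 array. The replicate block changed no other member's call, and in the wider list it ended those of Gsta3 at 8 h and for 10 h over 8 h, Taldo1 and Selenom at 12 h and Txnrd3 at 12 h and over all embryos. On the deposited scores, calls ended for Taldo1 and Txnrd3 at 12 h and over all embryos. Gsta3 at 8 h and Txndc9 for 12 h over 2 h lost theirs there too. With only the groups compared, calls ended for Prdx2, Selenom, Taldo1 and Txnrd3 at 12 h. Those of Tkt and Txndc9 for 12 h over 2 h and both of Gsta3 ended as well. Without the coarsest arrays, Prdx2, Selenom and Taldo1 at 12 h, Taldo1 over all embryos and Txndc9 for 12 h over 2 h lost theirs. Prdx2 at 12 h and Gsta3 at 8 h also lost their calls with median-centred arrays and without the mean-variance trend in limma. Gsta3 lost both calls with the mean of its probes. Txnrd1 over all embryos ran from -2.60 to -1.78 without 1 array in turn, and was -2.01 without the coarsest arrays. The coarsest arrays were 2 h embryo b, 4 h embryo c and 8 h embryos c and d. Without them only embryo a was left at 8 h, and the change of Gpx4 there became 2.22. At 10 h Gpx4 was 1.26 in units of the deposited scores. Some single-gene values that were not called changed sign. Gpx4 at 2 h (0.24) was -0.29 without 2 h embryo a and -0.02 with the replicate block. Prdx1 at 6 h reached -0.06 and -0.05 without 6 h embryo b or d (range -0.06 to 0.24). For 12 h over 2 h, ranges without 1 array in turn crossed 0 for Gpx3 (-0.39 to 0.26), Gpx4 (-0.21 to 0.66), Gsr (-1.74 to 0.06), Gclm (-1.51 to 0.54) and Sod1 (-0.33 to 1.49). Without the coarsest arrays Gpx4 was -0.07 and Gsr 0.06. Txndc9 for 12 h over 2 h, which was called, was -0.30 on its probe with the largest SD. The causes were not tested. Gpx4 has 1 probe, so no other probe of it could be tried. Groups of 3 or 4 single cells and signal near background (Gsr, Gclc, 2 probes of Sod1) limit what could be detected.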
